A study of Mus musculus with 8 samples.

Results

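The S100 genes encode small calcium-binding proteins, and 10 of them were followed here in the cheek skin of mice with and without Tbx20 in keratinocytes: S100a8, S100a9, S100a7a, S100a3, S100a4, S100a6, S100a10, S100a11, S100a14 and S100a16. They are the 10 rows with these symbols among the 18901 protein-coding genes of the deposited table, which holds 17 genes with an S100 name in all. RNA-seq was performed on cheek skin from 4 TBX20fl/fl;K14-Cre mice (conditional knockout, cKO) and 4 TBX20fl/fl mice (control), and the question was how loss of the transcription factor TBX20 from keratinocytes alters skin transcripts after a pruritogen. Both groups carried the floxed Tbx20 alleles, and both received 10 µg of brain natriuretic peptide (BNP), an itch-inducing peptide, into the cheek, so that there is no uninjected skin to compare with. In TBX20fl/fl;K14-Cre mice, Cre under the keratin 14 promoter removes exons 2 and 3 of Tbx20, a deletion the paper describes as specific to keratinocytes. The mice were females of 7 weeks, and skin was taken 5 h after a recording of 30 min.

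S100 proteins have a pair of calcium-binding EF-hand motifs and mostly act as dimers. Inside the cell they bind annexins, cytoskeletal proteins and enzymes in response to calcium. Outside it, S100A8 and S100A9 together form calprotectin, which is abundant in neutrophils, is made by keratinocytes of inflamed or injured skin, sequesters metal ions from microbes and signals through TLR4 and the receptor RAGE. In skin, S100A3 is known from the hair cuticle, the S100A7 type from inflamed epidermis, and S100A14 and S100A16 from epithelia in general.

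Between 16056282 and 19880654 reads were counted to genes per mouse, and 1 library stood apart. control replicate 2 had a TMM scaling factor (edgeR's correction for library composition) of 0.735, against 1.01 to 1.07 in the other 7 mice, and its FPKM values summed to 772536, against 521852 to 605508. FPKM is the read count scaled by transcript length and library depth, so it can be compared between genes. Transcript length moved with this library. The trend of counts on transcript length placed the 10 S100 genes 0.90 to 1.47 log2 units higher in this mouse than in the average mouse, and between -0.50 and 0.22 in the other 7. The S100 genes are all among the shortest 2660 of the 13298 genes with an estimated length, with effective lengths of 343 to 1083 bases against a median of 2841. The fold changes of the members are therefore given also without this mouse and with the length trend removed from every mouse. The labelled tissue carried skin markers: Krt14, the basal keratin whose promoter drives Cre, was at 1075 to 1572 FPKM in all 8 mice. The samples also held muscle, since Acta1, the actin of skeletal muscle, was at 2261 to 4086 FPKM. The targeted gene gave no check of the labels, because Tbx20 had 0 to 2.09 counts in cKO mice and 0 to 3.01 in control mice, too few for a difference to be detectable at this depth. Npr1, the BNP receptor that the study ties to TBX20, had 376 to 732 counts against 119 to 518 (log2 fold change 0.51, adjusted p = 0.502 by edgeR's quasi-likelihood test).

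The 10 genes lie on mouse chromosome 3 (GRCm38), in 2 stretches. S100a14 (from 90526849), S100a16, S100a3, S100a4, S100a6, S100a7a, S100a8 (90669071 to 90670034) and S100a9 (90692630 to 90695721) follow each other in this order. After 2824514 bases holding 54 other genes of the table, S100a11 starts at 93520235 and S100a10 ends at 93564645. S100a9 is read from the minus strand and the other 9 genes from the plus strand, so that S100a8 and S100a9 converge, with 22596 bases between them. The annotated span of S100a3 includes S100a2, a gene with 0 to 1 counts per mouse.

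Promoter sequence was available from RefSeq (GRCm38.p6) for 8 of the 10 genes, in 12 windows, but not for S100a10 and S100a14. The promoters of S100a8 and S100a9 are shown because these genes differed most in one direction and rose and fell together from mouse to mouse. Those of S100a4, the other gene whose groups did not overlap, and S100a3, the gene with the widest range, are shown for comparison. Each runs 5′ to 3′ in the direction of its gene, from 250 bases before the annotated start to 30 after it. Capitals mark the motif TATAAA, the core of the TATA box that positions transcription initiation.
S100a8, chr3:90668821-90669100, plus strand: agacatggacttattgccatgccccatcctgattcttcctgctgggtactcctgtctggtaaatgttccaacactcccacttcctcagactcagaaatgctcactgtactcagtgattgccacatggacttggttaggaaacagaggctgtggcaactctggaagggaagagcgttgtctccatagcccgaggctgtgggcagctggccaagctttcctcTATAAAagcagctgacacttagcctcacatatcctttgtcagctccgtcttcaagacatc
S100a9, chr3:90695692-90695971, minus strand: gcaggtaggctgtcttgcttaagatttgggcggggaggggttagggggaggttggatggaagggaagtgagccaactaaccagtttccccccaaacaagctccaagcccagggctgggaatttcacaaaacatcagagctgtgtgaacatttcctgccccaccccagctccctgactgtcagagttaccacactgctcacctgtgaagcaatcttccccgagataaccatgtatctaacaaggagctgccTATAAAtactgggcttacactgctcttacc
S100a4, chr3:90603520-90603799, plus strand: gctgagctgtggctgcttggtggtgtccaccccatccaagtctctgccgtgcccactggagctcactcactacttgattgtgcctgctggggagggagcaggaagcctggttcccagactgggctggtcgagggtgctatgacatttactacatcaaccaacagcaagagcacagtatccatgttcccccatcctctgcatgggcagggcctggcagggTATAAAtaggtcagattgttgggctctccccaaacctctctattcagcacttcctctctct
S100a3, chr3:90588313-90588592, plus strand, 1 of its 4 annotated starts: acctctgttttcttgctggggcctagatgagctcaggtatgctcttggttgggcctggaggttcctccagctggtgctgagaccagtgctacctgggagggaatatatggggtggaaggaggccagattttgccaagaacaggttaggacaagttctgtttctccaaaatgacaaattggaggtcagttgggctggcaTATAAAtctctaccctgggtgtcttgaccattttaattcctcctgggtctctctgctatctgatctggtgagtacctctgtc

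The motif begins 30 bases before the start of S100a8, 31 before that of S100a4, 52 before this start of S100a3 and at the annotated start itself in S100a9. It was found in 4 of the 12 windows (searched on both strands over 300 bases, to 50 after the start) and in 13.6% of all 32851 mouse promoter windows of that length. The motif TTGCNNAA, a core recognised by C/EBP factors of myeloid cells, was found in 1 window, that of S100a9, and in 10.8% of all windows. TGANTCA, the AP-1 motif, was found in 2 windows, in S100a11 and S100a16, and in 7.81% of all. The T-box letters AGGTGTG, the TBX20 motif the study searched for, were found in 1 window, 62 bases before a start of S100a16 (5.84% of all windows). GGTGTGA, which overlaps AGGTGTG in 6 letters, was in 0 of the 12 (3.98% of all). These matches describe the letters and were not tested as binding sites.

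Across the 8 mice the S100 genes spanned more than 2 orders of magnitude in level. S100a10, which partners annexin A2 at the plasma membrane, was highest with a mean of 974.8 ± 408.8 FPKM (SD, n = 8), and it exceeded S100a4 in 8 of 8 mice. S100a4 (mean 666 FPKM) and S100a11 (601) were not separated: S100a4 was the higher in 3 of 4 control mice and in 0 of 4 cKO mice. S100a14 (529), S100a6 (454) and S100a16 (313) followed, with the order kept by 6 to 8 of the 8 mice at each step. S100a9 (190) and S100a8 (175) came next, S100a9 above S100a8 in 6 of 8 mice. S100a3 (89.1) and S100a7a (8.11) were lowest, and their standard deviations, 185.5 and 16.1, exceeded their means.

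**Figure D1:**
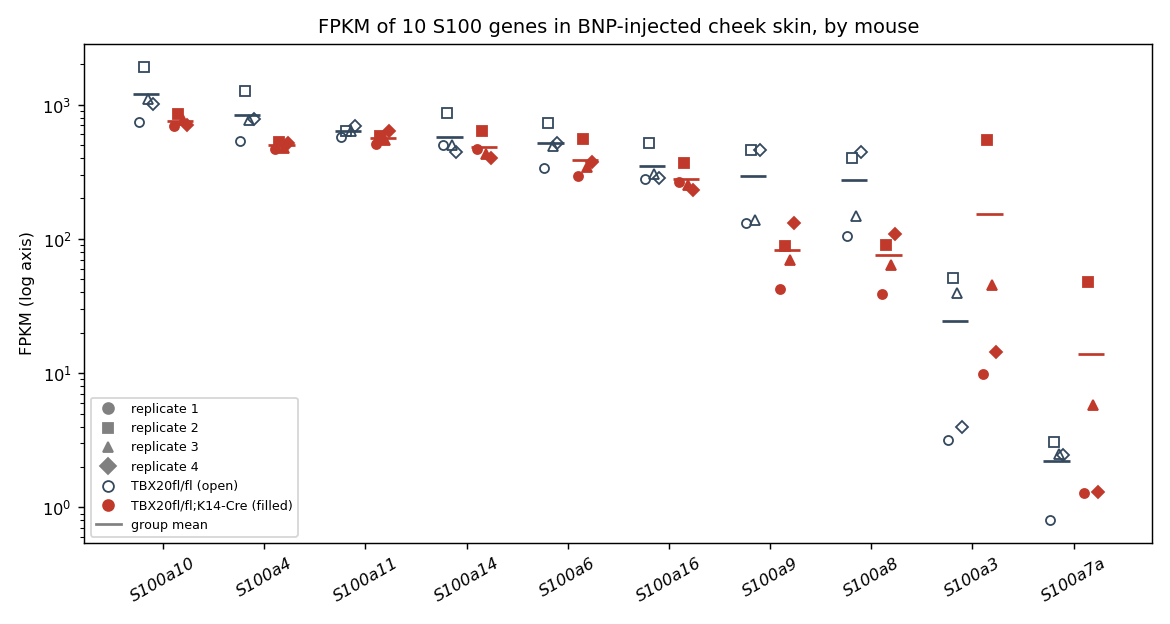
FPKM (log axis) of the 10 S100 genes, ordered by mean, in 4 TBX20fl/fl mice (open symbols) and 4 TBX20fl/fl;K14-Cre mice (filled symbols); the symbol shape gives the replicate number and the line the group mean. S100a8 and S100a9 sit lower in TBX20fl/fl;K14-Cre mice, with 39.1 against 104.2 FPKM as the lowest S100a8 values, and the TBX20fl/fl;K14-Cre mean of S100a3 is set by 1 mouse at 545.8 FPKM.

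S100a8 and S100a9, the subunits of calprotectin, had the largest fold changes below 0 among the 10 genes. S100a8 was at 39.05, 90.03, 63.41 and 109.55 FPKM in cKO replicates 1 to 4, and at 104.24, 398.38, 147.46 and 447.55 FPKM in control replicates 1 to 4. The groups overlapped only in that cKO replicate 4 was above control replicate 1. The mean was 75.5 ± 30.8 against 274.4 ± 173.6 FPKM (SD, n = 4 each; two-sided exact permutation p = 0.0571, where 0.0286 is the smallest this design allows over free assignments of mice). On counts the log2 fold change was -2.10 (SE 0.548, 95% interval -3.33 to -0.87), with an adjusted p of 0.498 by the quasi-likelihood test of edgeR (Benjamini-Hochberg correction over 17124 genes). The unadjusted p was under 0.05 and the adjusted one was not.

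S100a9 was at 42.43, 88.88, 69.96 and 131.07 FPKM in cKO mice and at 132.00, 458.46, 137.43 and 457.35 FPKM in control mice. All 4 cKO mice were below all 4 control mice, although the closest pair differed by less than 1 FPKM. Means were 83.1 ± 37.2 and 296.3 ± 186.6 FPKM (SD, n = 4 each; two-sided exact permutation p = 0.0286, the smallest possible). The log2 fold change on counts was -2.09 (SE 0.558, 95% interval -3.34 to -0.83; edgeR adjusted p = 0.498). S100a8 ranked 58th and S100a9 72nd of the 17124 genes by p. Without control replicate 2 the log2 fold changes were -1.67 for S100a8 and -1.59 for S100a9, and with the length trend removed they were -1.33 and -1.35, still with 95% intervals below 0 (-2.40 to -0.26 and -2.41 to -0.29). Both genes stayed below 0 in all 16 alternative fits of the counts.

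The calprotectin subunits had similar FPKM values in each mouse while their level varied between mice. The ratio of S100a8 to S100a9 FPKM lay between 0.836 and 1.01 in cKO mice and between 0.790 and 1.07 in control mice. The mean log2 ratio was -0.13 ± 0.114 against -0.12 ± 0.194 (SD, n = 4 each; two-sided exact permutation p = 0.886). Over the 8 mice their log2 CPM correlated with Pearson's r = 0.994 and Spearman's rho = 0.976, and r was 0.970 without the 2 mice farthest from the median. The points share library and length trend, and this r is a description. Such likeness was not particular to this pair: S100a8 with S100a11 had r = 0.936 and rho = 1, and S100a4 with S100a10 had r = 0.985. Calprotectin made up 2.92% to 7.71% of the summed FPKM of the 10 genes in cKO mice and 6.90% to 19.5% in control mice. These shares overlapped between the groups.

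**Figure D2:**
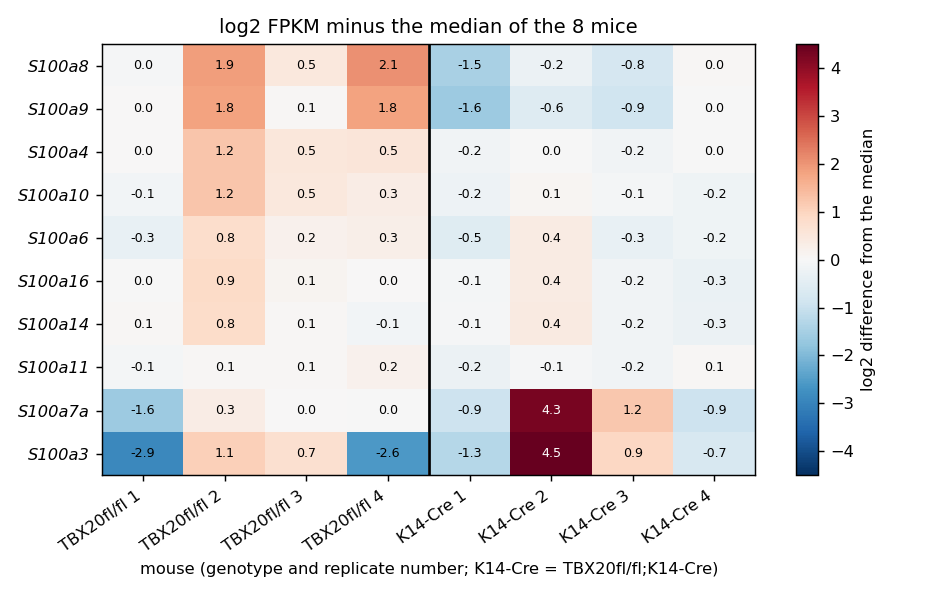
log2 FPKM of each S100 gene minus its median over the 8 mice, for TBX20fl/fl replicates 1 to 4 (left) and TBX20fl/fl;K14-Cre replicates 1 to 4 (right). S100a8 and S100a9 are highest in TBX20fl/fl replicates 2 and 4, S100a4, S100a6, S100a10, S100a14 and S100a16 are highest in TBX20fl/fl replicate 2, and S100a7a and S100a3 stand 4.27 and 4.51 above their medians in TBX20fl/fl;K14-Cre replicate 2.

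S100a7a and S100a3 were the only members with fold changes above 0, and 1 mouse set the mean of both. S100a3, a protein of the hair cuticle, was at 9.78, 545.8, 45.4 and 14.4 FPKM in cKO mice and at 3.17, 50.7, 39.7 and 3.99 FPKM in control mice. cKO replicate 2 stood far above the rest, the groups otherwise overlapped, and in each group replicates 2 and 3 were above replicates 1 and 4. Means were 153.9 ± 261.8 and 24.4 ± 24.5 FPKM (SD, n = 4 each; two-sided exact permutation p = 0.429). The log2 fold change on counts was 2.34 (SE 1.40, 95% interval -0.83 to 5.50; edgeR adjusted p = 0.500). Without cKO replicate 2 it was -0.39, and without both replicate 2 mice it was 0.51. Without control replicate 2 it was 3.23, and with the length trend removed 3.06 (95% interval 0.17 to 5.96; edgeR adjusted p = 0.533). Between same-numbered mice S100a3 FPKM was higher in the cKO mouse in 4 of 4 pairs, and the share of all genes with this pattern was not counted. A fit blocked on replicate number gave a log2 fold change of 1.60 (edgeR adjusted p = 0.405).

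S100a7a, the mouse psoriasin-type gene of inflamed epidermis, was at 1.28, 47.7, 5.77 and 1.30 FPKM in cKO mice and at 0.80, 3.09, 2.49 and 2.45 FPKM in control mice. Replicates 2 and 3 of the cKO group were above all control mice, and replicates 1 and 4 lay within their range. Means were 14.003 ± 22.5 and 2.21 ± 0.983 FPKM (SD, n = 4 each; two-sided exact permutation p = 0.371), with a log2 fold change of 2.32 (SE 1.04; edgeR adjusted p = 0.498). It was 0.19 without cKO replicate 2, 1.14 with the replicate block, 2.59 without control replicate 2 and 2.72 with the length trend removed (95% interval 0.51 to 4.93; edgeR adjusted p = 0.533). When its transcripts were cut into every run of 50 bases, 6.44% of the runs were shared with other genes, as were 3.59% of the runs of S100a3. How reads from such runs were assigned is not known.

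The remaining 6 members are broadly expressed S100 genes, and their log2 fold changes lay between -0.99 and -0.34. S100a4, found in fibroblasts and myeloid cells, was at 470.8, 528.9, 473.6 and 520.4 FPKM in cKO mice and at 534.5, 1259, 764.0 and 778.0 FPKM in control mice. The groups did not overlap, but the lowest control mouse and the highest cKO mouse were close. Means were 498.4 ± 30.5 and 834.0 ± 304.8 FPKM (SD, n = 4 each; two-sided exact permutation p = 0.0286). The log2 fold change was -0.99 (SE 0.334, 95% interval -1.74 to -0.24; edgeR adjusted p = 0.498). It was -0.52 without control replicate 2 and -0.24 with the length trend removed (95% interval -0.52 to 0.05). Of the 50-base runs of S100a4, 47.4% are shared with the overlapping gene model Gm42674, so its counts are uncertain to the extent that reads were divided.

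S100a10 was at 696.9, 849.4, 766.6 and 710.9 FPKM in cKO mice and at 738.6, 1918, 1110 and 1009 FPKM in control mice. control replicate 1 lay within the cKO range, and the other 3 control mice lay above it. The log2 fold change was -0.92 (SE 0.369, 95% interval -1.75 to -0.09; edgeR adjusted p = 0.498). It was -0.38 without control replicate 2 and -0.21 with the length trend removed. The two-sided exact permutation p of the means, 756.0 ± 69.2 and 1194 ± 507.4 FPKM (SD, n = 4 each), was 0.0857.

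S100a6, or calcyclin, a protein of fibroblasts and keratinocytes, ranged from 293.1 to 552.4 FPKM in cKO mice and from 339.5 to 731.7 FPKM in control mice, with overlap and a log2 fold change of -0.65 (SE 0.341; edgeR adjusted p = 0.498). It was -0.25 without control replicate 2 and -0.04 with the length trend removed (95% interval -0.42 to 0.34). S100a11, a partner of annexin A1, varied least of the 10 genes, from 511.9 to 631.9 FPKM and from 577.8 to 691.7 FPKM, with a log2 fold change of -0.34 (SE 0.170, 95% interval -0.72 to 0.04; edgeR adjusted p = 0.498). It was -0.21 without control replicate 2 and 0.24 with the length trend removed. Of its 50-base runs, 41.1% are shared with the processed pseudogenes Gm12854, Gm29240 and Gm7665.

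S100a14 and S100a16, both of epithelial cells, followed each other closely over the mice (r = 0.992 of log2 CPM over 8 mice, and 0.899 without the 2 farthest). S100a14 was at 464.1, 638.5, 430.7 and 398.0 FPKM against 501.8, 860.7, 498.1 and 443.7 FPKM, and S100a16 ranged from 230.6 to 368.9 against 279.6 to 514.6 FPKM. In each gene the highest mouse of either group was its replicate 2, and the groups overlapped. The log2 fold changes were -0.50 (SE 0.339) and -0.55 (SE 0.333), with edgeR adjusted p-values of 0.512 and 0.500. Without control replicate 2 they were -0.04 and -0.10, and with the length trend removed 0.01 and -0.06, with 95% intervals of -0.33 to 0.35 and -0.39 to 0.27.

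Counted together, 8 of the 10 members had a log2 fold change below 0, where 47.5% of all 17124 genes did. Of the 2660 shortest genes, to which all 10 members belong, 92.1% were below 0, so that 8 of 10 is not a higher share than in that set. The set reaches 1590 bases and the members only 1083, so its shares are not matched to the members' lengths. The members' median log2 fold change was -0.60, against -0.47 in those shortest genes and 0.03 over all genes. It was -0.23 without control replicate 2 and -0.05 with the length trend removed. In FPKM, 8 members were lower in the cKO mouse in 4 of 4 same-numbered pairs, as were 10.2% of 15969 genes and 34.5% of the 2660 shortest. An unadjusted p under 0.05 with lower counts in cKO mice was reached by 4 of 10 members (S100a8, S100a9, S100a4 and S100a10), against 5.91% of all genes and 17.6% of the 2660 shortest, and with higher counts by 0 of 10, against 2.45%. With the length trend removed these counts were 2 lower (S100a8 and S100a9; 5.25% of all genes) and 2 higher (S100a3 and S100a7a; 3.38%). With the replicate block they were 5 lower (6.54% of all genes) and 1 higher (3.52%), S100a6 and S100a3 being added. FPKM groups without overlap were seen for 2 members, both lower in cKO mice (1.92% of 15969 genes), and for 0 higher (5.45%). No member passed an adjusted p of 0.05 in edgeR, nor did any of the 17124 genes (0%), of which 1431 had an unadjusted p under 0.05. DESeq2's Wald test on the same counts called 10 genes, none of them a member, and gave S100a8 and S100a9 an adjusted p of 0.0687 each.

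**Figure D3:**
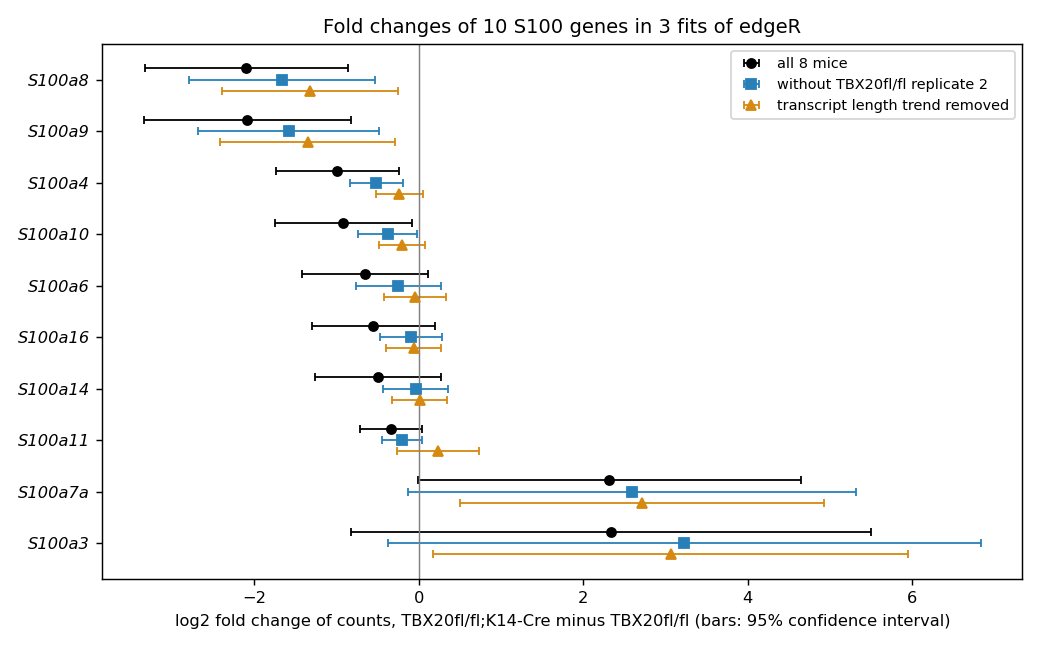
log2 fold changes of counts, TBX20fl/fl;K14-Cre minus TBX20fl/fl, with 95% confidence intervals from edgeR, for all 8 mice (circles), without TBX20fl/fl replicate 2 (squares) and with the transcript length trend removed (triangles). S100a8 and S100a9 stay below 0 in the 3 fits (-2.10, -1.67 and -1.33 for S100a8), whereas S100a14 moves from -0.50 to 0.01.

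Of the other S100 genes, 7 were in the table and 4 had enough counts to test. S100a1, a protein of striated muscle, was the most abundant at 83.1 to 98.0 FPKM against 90.5 to 213.1 FPKM (log2 fold change -0.80, edgeR adjusted p = 0.498). S100a13 was at 46.5 to 54.6 against 51.8 to 116.7 FPKM (log2 fold change -0.90, edgeR adjusted p = 0.498), and it was the 1 gene of the 4 with an unadjusted p under 0.05 (5.91% of all genes with lower counts and 17.6% of the 2660 shortest). Without control replicate 2 the fold changes were -0.26 for S100a1 and -0.45 for S100a13, and with the length trend removed -0.08 and -0.27. S100a2, S100a5 and S100z had fewer than 10 counts over the 8 mice.

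The fused-type S100 genes carry an S100 domain at the start of a long repetitive protein of the cornified layer or hair follicle. Of these, 5 of 7 had log2 fold changes above 0 (52.5% of all genes), with a median of 0.88. Flg, filaggrin, was at 9.53 to 13.6 FPKM in cKO mice and at 1.89 to 9.09 FPKM in control mice (log2 fold change 0.88; edgeR adjusted p = 0.498). The groups did not overlap, as for 5.45% of 15969 genes with higher values in cKO mice. Tchh, trichohyalin of the hair inner root sheath, was at 6.23 to 200.9 against 3.34 to 13.2 FPKM (log2 fold change 2.64; edgeR adjusted p = 0.498). The most abundant, Flg2 and Hrnr, had log2 fold changes of 0.32 and -0.12, or -0.19 and -0.68 with the length trend removed. Flg and Tchh had an unadjusted p under 0.05 with higher counts in cKO mice (2.45% of all genes), and none of the 7 with lower counts. With the length trend removed the median was 0.39. In that fit 2 genes had an unadjusted p under 0.05 with lower counts (Hrnr and Rptn, beside 5.25% of all genes) and 1 with higher (Tchhl1, beside 3.38%). The direction of these calls thus depended on the scaling. The replicate block gave 4 with higher counts (3.52% of all genes) and 0 with lower, and without cKO replicate 2 there were 0 in either direction.

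Among 10 genes for proteins that S100 proteins bind, 5 fold changes were below 0 and 5 above, with a median of -0.06. Anxa1, the partner of S100A11, was at 797.5 to 1041 against 975.6 to 2004 FPKM (log2 fold change -0.84; edgeR adjusted p = 0.498). Anxa2, the partner of S100A10, was at 638.9 to 732.4 against 758.2 to 1019 FPKM (log2 fold change -0.50; edgeR adjusted p = 0.498). The Anxa2 groups did not overlap, as for 1.92% of 15969 genes with lower values in cKO mice. Padi3, the enzyme that citrullinates S100A3 and trichohyalin in the hair follicle, was at 0.65 to 21.5 against 0.27 to 1.27 FPKM (log2 fold change 3.19; edgeR adjusted p = 0.498). Anxa1 was at -0.39, Anxa2 at -0.25 and Padi3 at 3.32 without control replicate 2, and at -0.44, -0.15 and 3.15 with the length trend removed. In the fit of all 8 mice 1 gene had an unadjusted p under 0.05 with lower counts (Anxa1, beside 5.91% of all genes) and 1 with higher (Padi3, beside 2.45%). Without cKO replicate 2 these numbers were 1 and 0. The highest Padi3 value, like that of S100a3, was in cKO replicate 2.

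Of 8 receptor genes for extracellular S100 proteins, 7 had log2 fold changes below 0 (47.5% of all genes), with a median of -0.28, and 2 had an unadjusted p under 0.05 with lower counts (5.91% of all genes). With the length trend removed 5 of 8 were below 0, and without control replicate 2 the second number was 1. The 2 genes were Cd14 and Ly96, co-receptors of TLR4. Cd14 was at 9.57 to 24.8 against 23.0 to 47.0 FPKM (log2 fold change -1.20; edgeR adjusted p = 0.498), and Ly96 was at 11.5 to 15.9 against 13.2 to 25.1 FPKM (log2 fold change -0.71; edgeR adjusted p = 0.498). Cd14 was at -0.95, Ly96 at -0.37 and the median of the list at -0.08 without control replicate 2. Cd36 and Bsg, the most abundant, had log2 fold changes of -0.40 and -0.22, or -0.10 and -0.05 without control replicate 2, and Bsg was at 0.098 with the length trend removed. Tlr4 itself, named here after its values were seen, was at 7.83 to 10.1 against 8.23 to 12.8 FPKM (log2 fold change -0.33, or -0.95 with the length trend removed, where Ly96 was at -0.06 and Cd14 at -0.94), and Ager, which encodes RAGE, had 5 to 13 counts per mouse.

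Cytokines known to induce S100A8 and S100A9 in keratinocytes had log2 fold changes below 0 for 7 of the 7 that could be tested (47.5% of all genes). Of these 7, 5 had an unadjusted p under 0.05, beside 5.91% of all genes with lower counts. The median log2 fold change was -1.73, the fitted value of Il17f, a gene with few counts. Il1b was at 12.95 to 58.6 against 57.1 to 197.6 FPKM (log2 fold change -2.06), and Il1a at 13.1 to 16.1 against 18.9 to 26.5 FPKM (log2 fold change -0.81). The Il1a groups did not overlap, as for 1.92% of 15969 genes with lower values in cKO mice. Tnf and Osm, the oncostatin M gene, had log2 fold changes of -1.29 and -1.499. Each had an adjusted p of 0.498 by edgeR. Il1b was at -1.43, Il1a at -0.55, Tnf at -1.08 and Osm at -0.92 without control replicate 2. Without control replicate 2, 7 of 7 were still below 0 and 5 had an unadjusted p under 0.05, with a median of -1.08. The same counts held with the length trend removed, with a median of -1.36, where 5.25% of all genes had such a p with lower counts. The summed FPKM of the list was 32.00 to 82.2 in cKO mice and 90.02 to 255.3 in control mice. Il17a and Il17f had 0 to 6 counts per mouse.

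Neutrophil markers moved with S100a8 and S100a9. Of 12 markers, 11 had log2 fold changes below 0 (47.5% of all genes) and 7 an unadjusted p under 0.05 (5.91% of all genes with lower counts), with a median of -1.18 and summed FPKM of 32.2, 45.2, 40.6 and 64.2 in cKO mice and 64.7, 88.3, 54.2 and 83.9 in control mice. Within the cKO group, S100a8, S100a9 and the summed markers put the 4 mice in the same order. In control mice the orders differed: replicate 1 was lowest for S100a8 and S100a9 and replicate 3 for the markers, although replicates 2 and 4 were the highest pair in each. The most abundant markers were Retnlg, at 11.3 to 24.5 against 18.3 to 46.0 FPKM (log2 fold change -0.92; edgeR adjusted p = 0.498), and Csf3r, at 8.67 to 16.7 against 8.66 to 24.1 FPKM (log2 fold change -0.51). Cxcr2, the chemokine receptor of mature neutrophils, was at 4.63 to 9.29 against 8.77 to 17.2 FPKM (log2 fold change -0.96; edgeR adjusted p = 0.498), and Stfa2l1 at 2.01 to 3.71 against 6.18 to 17.7 FPKM. The list had 11 genes below 0 and 7 with an unadjusted p under 0.05 also without control replicate 2 (median -1.07), and likewise with the length trend removed (median -1.03), but Retnlg was then at -0.32 and -0.18. The defining genes were near 0: Ly6g had 2.02 to 8.75 counts per mouse and Mpo 0 to 10, and none of the 12 was at 0 in all mice. Ngp, with 0 to 8 counts, and Elane, with 1 to 11, were also near 0. These and Ly6g and Mpo are among the 7 with an unadjusted p under 0.05, whereas Retnlg and Csf3r are not. Mmp9 had a log2 fold change of -0.002 and Camp of 0.57. Over the 8 mice, the mean log2 CPM of the list correlated with S100a8 at r = 0.928 (rho = 0.952; r = 0.827 without the 2 farthest mice) and with S100a9 at r = 0.944 (rho = 0.976; r = 0.863), given as descriptions. The likeness was not particular to these genes, since S100a11 had r = 0.896 and S100a4 r = 0.849 with the same list. The part of neutrophils in the S100a8 and S100a9 values was not tested, and in whole skin fewer cells of a type and less RNA per cell cannot be told apart.

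The search for the most similar genes left out the 10 members and covered 13288 genes averaging 50 or more counts per mouse. The 4 of these most like S100a9 over the 8 mice were Clec4d, a lectin receptor of myeloid cells, Timp1, Cd14 and Crabp1, with r from 0.979 to 0.985. Those most like S100a8, again with the members left out, were Crabp1, Arpc1b, Ralb and Sirpb1b, with r from 0.971 to 0.979. Clec4d was at 7.59 to 20.8 FPKM in cKO mice and at 20.9 to 59.8 FPKM in control mice.

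Hair shaft keratins moved with S100a3. All 10 in the table had log2 fold changes above 0 (52.5% of all genes), with a median of 1.15. The median was 1.74 without control replicate 2 and 1.47 with the length trend removed, but without cKO replicate 2 it was -0.40 and 8 of the 10 were below 0. Their summed FPKM was 13.3, 398.1, 85.3 and 25.5 in cKO mice and 5.58, 91.9, 84.4 and 14.03 in control mice. Replicate 2 was the highest mouse of each group and replicates 1 and 4 the lowest, as for S100a3. Krt35, the most abundant, was at 0.85 to 86.7 against 0.46 to 7.41 FPKM, Krt33a was at 1.21 to 55.8 against 0.26 to 12.8 FPKM, and Krt82, of the hair cuticle, was the 1 gene with an unadjusted p under 0.05 (log2 fold change 2.78; edgeR adjusted p = 0.498), against 2.45% of all genes with higher counts, and the replicate block gave 5 such genes, against 3.52%. The mean log2 CPM of the list correlated with S100a3 at r = 0.952 over the 8 mice (rho = 0.976; r = 0.953 without the 2 farthest). The 4 genes most like S100a3 were Crnn, Krt72, Krtap26-1 and Crym, with r from 0.979 to 0.981, and S100a3 had r = -0.05 with S100a8. The part of hair follicle content in the S100a3 and S100a7a values was not tested.

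**Figure D4:**
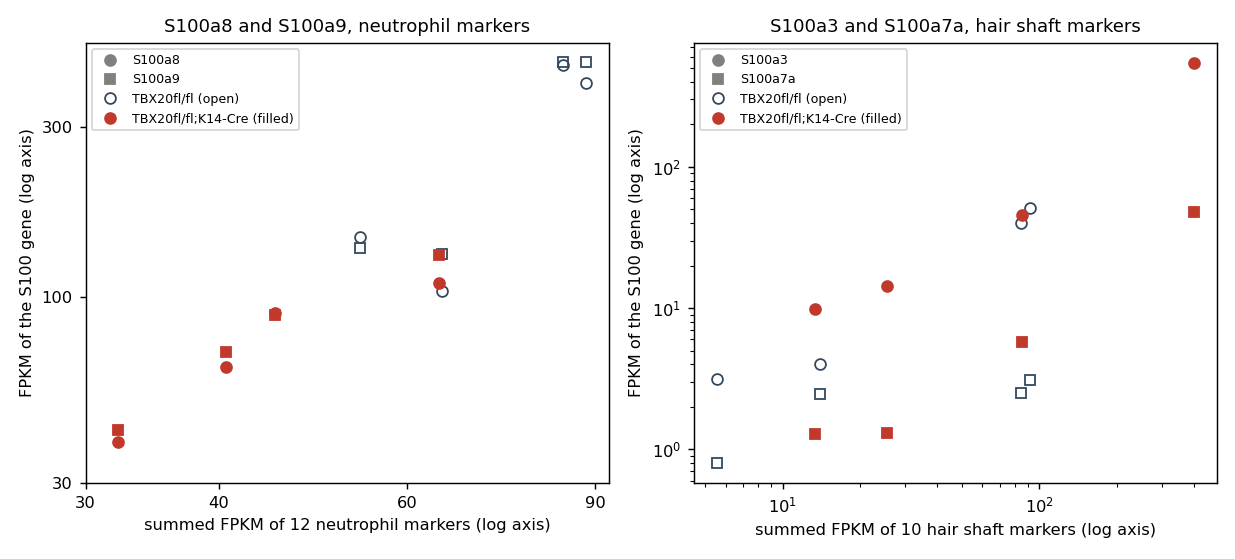
Left, FPKM of S100a8 (circles) and S100a9 (squares) against the summed FPKM of 12 neutrophil markers. Right, FPKM of S100a3 (circles) and S100a7a (squares) against the summed FPKM of 10 hair shaft markers. All axes are log, each symbol is 1 gene in 1 of 8 mice, and filled symbols are TBX20fl/fl;K14-Cre mice: S100a8 and S100a9 are lowest where the neutrophil markers sum to 32.2, and S100a3 and S100a7a are highest where the hair shaft markers sum to 398.1.

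Markers of the other cell types had median fold changes closer to 0. Of 8 monocyte and macrophage markers 5 were below 0 (47.5% of all genes) and 3 had an unadjusted p under 0.05 with lower counts (5.91% of all genes), among them Ly6c2 (log2 fold change -2.02) and Ccr2 (-0.65), and their summed FPKM was 946.0 to 1433 against 1122 to 2233. The most abundant of them, Lyz2, was at 735.7 to 1086 against 913.3 to 2044 FPKM (log2 fold change -0.83; edgeR adjusted p = 0.498), and Cd68 had a log2 fold change of -0.12. Lyz2 was at -0.36 without control replicate 2, and 1 of the 8 then had an unadjusted p under 0.05. Basal keratinocyte markers, led by Krt14 and Krt15, had a median log2 fold change of 0.19 over 6 genes (0.064 without control replicate 2 and -0.026 with the length trend removed), none with an unadjusted p under 0.05. The 6 markers of differentiated keratinocytes had a median of -0.03, and Krt10 was at 0.05. Of these Krtdap (log2 fold change -0.89; edgeR adjusted p = 0.498) was the 1 gene with an unadjusted p under 0.05 (5.91% of all genes with lower counts). Krtdap was at -0.39 without control replicate 2 and at -0.09 with the length trend removed. Fibroblast markers had a median of 0.40 over 6 genes, with Col1a1 (1.10) and Col1a2 (0.75) at an unadjusted p under 0.05 (2.45% of all genes with higher counts), Dcn at -0.64 and Col3a1 at 0.44, whereas with the length trend removed the median was 0.018 and Col1a1 (0.82) alone had such a p. The 6 skeletal muscle markers (led by Acta1 and Mylpf) and the 6 adipocyte markers (led by Fabp4 and Adipoq) held none with an unadjusted p under 0.05 in the fit of all 8 mice, with medians of -0.04 and 0.05. With the length trend removed the medians were 0.14 and 0.23, all 6 adipocyte markers were above 0, and Adipoq (0.35) had such a p.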

How the data were processed

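Polyadenylated RNA, selected from total RNA of whole cheek skin of 8 mice, was sequenced in single-end reads of 50 bases. Per the methods and labels, reads were filtered with SOAPnuke and aligned with HISAT, and the counting program and strand setting are not given in the sources used here. The authors deposited estimated counts and FPKM per gene, and 69.0% of the counts above 0 were not whole. Other deposited columns, such as the authors' comparisons (fold changes and p-values), were not used.

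The estimated counts as deposited were rounded and tested with edgeR 4.0.16 (quasi-likelihood, TMM, genes with at least 10 counts over 8 mice, Benjamini-Hochberg over 17124 genes, R 4.3.3). DESeq2 1.42.0 was an alternative. The authors' FPKM values were tested with limma 3.58.1 on log2(FPKM + 1) for genes with a mean of at least 0.1, a scale that understates changes of low genes: the members' differences ran from -1.69 to 1.65, with adjusted p-values of 0.457 to 0.568. Single values were tested by exact permutation over 70 assignments. Effective lengths came from counts and FPKM, and a smooth trend of each mouse's deviations on log2 length, over genes averaging 50 or more counts, gave the length correction. Correlations used log2 CPM with a prior count of 2. Stretches of 50 bases were compared with GENCODE transcripts of the same build. The code was tested on simulated data.

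Deviations of same-numbered mice from their group means correlated at 0.398, 0.303, 0.243 and 0.147, against a mean of -0.08 for other pairs, so the replicate numbers were taken to pair the mice. For cKO replicate 4 a control mouse of another number correlated higher. The pairing was read from these data, and no label says what a shared number means. The permutations do not use the pairs, and a sign flip over 4 pairs cannot give a p under 0.125. The labels name separate samples and the methods separate mice.

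Members, lists and tests were chosen with earlier results of these data known, and the fit without both replicate 2 mice, the lists' values without either replicate 2 mouse or the length trend or with the block, the motifs and the printed promoters after the files were seen. Named genes were the members, the 2 most abundant genes of each list and up to 4 with an unadjusted p under 0.05 in order of p, and the 4 genes outside the members most like S100a8, S100a9 and S100a3. Tlr4, Ager, Il17a, Il17f, Rptn, Tchhl1, Ngp, Elane, Mmp9 and Camp were named after their values were seen. Krt85, S100a7l2, Il36a, Il36b and Il36g were not analysed here.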

Additional observations from a re-analysis of the deposited data

Results flagged for a closer look

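Of 48 groups of 4 mice examined for a single distant mouse, 4 had one, and chance gives about 2.4. In TBX20fl/fl;K14-Cre mice, replicate 2 stood apart for S100a7a, at 47.66 FPKM, and for S100a3, at 545.79 FPKM. The same mouse had the highest summed FPKM of hair shaft keratins, 398.1. In TBX20fl/fl mice, replicate 2 stood apart for S100a14, at 860.71 FPKM, and for S100a16, at 514.63 FPKM. That library is the one with a TMM factor of 0.735.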

How the results depend on the processing

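No member passed an adjusted p of 0.05 under any of the 17 fits of the counts, DESeq2 giving no adjusted p for S100a3. The number of genes past that threshold was 0 except with DESeq2's Wald test, which gave 10, and the cause was not tested. The median log2 fold change of the members, -0.60, was -0.053 with the length trend removed, -0.060 with the length trend removed and the replicate block, -0.34 without both replicate 2 mice (a fit chosen after the data were seen), and -0.79 to -0.23 when 1 mouse was left out, the highest being without TBX20fl/fl replicate 2. With the replicate block alone it was -0.51, 0 genes passed, and no member passed the adjusted threshold. S100a11 turned to 0.24 and S100a14 to 0.0084 with the length trend removed, and to 0.28 and 0.0046 with the block added. S100a3 turned to -0.39 without TBX20fl/fl;K14-Cre replicate 2 and was 3.23 without TBX20fl/fl replicate 2. Leaving out 1 mouse gave S100a8 log2 fold changes of -2.39 to -1.67 and S100a9 of -2.39 to -1.59. The difference in log2 ratio of S100a8 to S100a9, -0.0072, ran from -0.081 to 0.066 over the same omissions, and its sign turned without TBX20fl/fl;K14-Cre replicate 4 (0.04), TBX20fl/fl replicate 3 (0.066) or TBX20fl/fl replicate 4 (0.02). The number of members without overlap, 2, ran from 2 to 4, with 4 without TBX20fl/fl replicate 1. Counts per mouse were lowest for S100a7a (18.03) and S100a3 (42) and at least 258 for the other 8 members, so that depth limits mainly S100a7a.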
